A study of Mus musculus with 12 samples.

Results

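The 41 genes described here encode the SR proteins, the heterogeneous nuclear ribonucleoproteins (hnRNPs) and the SF3A and SF3B subunits of the U2 small nuclear ribonucleoprotein. They were chosen by symbol alone: Srsf followed by a number, any symbol that starts with Hnrnp, and Sf3a or Sf3b followed by a number. The rule found 11 SR genes, 21 hnRNP genes and 9 SF3 genes among the 18120 genes measured at both times of the study, out of 18765 genes listed at 5 days and 18712 listed at 10 days. The rule uses no measured value, although the families were proposed with earlier results of these data known, and no member was dropped for a low level. One member, Hnrnpa1l2-ps2, is annotated as a processed pseudogene, and the other 40 are annotated as protein-coding.

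SR proteins bind exons through RNA recognition motifs and bring the splicing machinery to nearby splice sites through domains rich in arginine and serine. The hnRNPs coat nascent transcripts, and many of them repress exons or stabilise messenger RNA, so the balance between both families shapes which exons a cell includes. SF3A and SF3B hold the U2 particle on the branch point of every intron it removes. Many genes of the first 2 families also carry exons with an early stop codon, whose inclusion sends the transcript to nonsense-mediated decay and so limits the factor's own messenger RNA.

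The cells were E14 mouse embryonic stem cells of the genotype RACK1-AID/RPS26-Tir1, called Ribo-Tweezer, so every group carried both modified ribosomal protein genes. RACK1 is a protein of the small ribosomal subunit, AID is an auxin-inducible degron, Tir1 is the plant receptor that recruits a degron-tagged protein for degradation, and IAA is the auxin that starts it. The groups were cells given IAA for 5 days, cells given DMSO for 5 days, cells given IAA for 5 days and then grown for 10 days after withdrawal, and the DMSO control of that withdrawal arm, with 3 libraries of poly(A) RNA in each. The labels do not say whether the 3 libraries of a group came from separate cultures or how many clones the line represents, so the p-values speak only of the variation among the sequenced libraries, part or all of which may be technical.

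The values are the authors' comparisons of IAA with DMSO, 1 table per time, and no value of a single library was used because the tables hold none. Group levels below were therefore derived from the mean log2 CPM (counts scaled to library size) and the log2 fold, split evenly to both sides of the mean, and they carry no spread of their own; the standard error (SE) given is that of the fold. The steps between the rarest genes put the geometric mean depth at 23322741 counts per library at 5 days and 21213436 at 10 days. The headers do not state which group is on top of the fold. Over 4772 genes called at 5 days, the mean level at 5 days minus that at 10 days was regressed on the 5-day fold. The slope was 0.53 ± 0.01 (SE), and it should be near 0.5 if positive means higher in IAA and near -0.5 if it means lower. That reading is used throughout, and it assumes that the DMSO cells of both times were alike, or differed without relation to the 5-day fold. They were not alike in every gene. The derived DMSO level of Sf3b1 was 7.89 log2 CPM at 5 days and 9.30 at 10 days, and that of Sf3b4 was 8.01 and 6.37. Whether such differences were related to the 5-day fold was not tested. All 10 pluripotency markers had mean levels between 8.70 and 10.68 log2 CPM in the authors' deposited table at 5 days, while 5 of 7 measured fibroblast feeder markers lay below 0. The authors' deposited table gave Rack1 itself a log2 fold of -0.17 at 5 days (limma adjusted p = 0.0051); its transcript level does not check the label, because the degron acts on the protein.

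The early stop codons of the SR genes are shown first, because such exons are a known feature of the family. In GENCODE M21 (GRCm38), 9 of 11 SR genes had a transcript annotated for nonsense-mediated decay, as had 10 of 20 protein-coding hnRNP genes and 1 of 9 SF3 genes, against 24.8% of 16861 protein-coding genes in both tables and 30.5% of those with a mean log2 CPM of 6 or more. These shares were not adjusted for the number of annotated transcripts. Its median was 7 in SR, 8 in hnRNP and 4 in SF3 genes, against 4 in all genes and 6 in those with a mean log2 CPM of 6 or more. For 6 SR genes the early stop lay in an exon outside the transcript the authors list. The last 30 bases up to and including that stop are printed 5′ to 3′ from the GENCODE M21 transcripts, with the stop codon in capitals.
Srsf3: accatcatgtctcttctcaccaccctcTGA
Srsf4: gtaacccggttgtctcatgccccagctTAG
Srsf6: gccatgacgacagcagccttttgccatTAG
Srsf7: aggtttcttcgtttgagtcagtcgcctTGA
Srsf9: cctgggttggagattacggattcacagTAG
Srsf11: gctgaagttcttttccctggttcagccTGA
The exon with the Srsf3 stop lay at chr17:29039454-29039909 on the plus strand, that of Srsf4 at chr4:131884276-131884482 (plus), and that of Srsf6 at chr2:162932815-162933082 (plus). The exon of Srsf7 lay at chr17:80204622-80205081 (minus), that of Srsf9 at chr5:115328347-115328704 (plus), and that of Srsf11 at chr3:158024123-158024231 (minus). The stop was followed by 3 exon junctions in the Srsf3 transcript, 4 in those of Srsf4, Srsf6 and Srsf9, and 5 in those of Srsf7 and Srsf11. These values are of 1 decay transcript per gene. Srsf3, Srsf4 and Srsf11 have others with different numbers of junctions after the stop. In 1 of Srsf11 the stop lay in another exon outside the listed transcript, at chr3:158023243-158023359 (minus). The deposited values give 1 number per gene, so inclusion of these exons was not measured here.

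Members were among the more abundant transcripts. Their median mean level was 8.20 log2 CPM at 5 days, against 3.03 for all genes, and 38 of 41 reached a mean of 6 log2 CPM. Per kilobase of the listed transcript in the 5-day table, Hnrnpab, an A/B-type hnRNP, had the highest mean, 595 CPM per kilobase, followed by Hnrnpa3 with 567 and Hnrnpf, which binds runs of G, with 502. The order differed in the 10-day table, where Hnrnpa3 had 691, Hnrnpf 555 and Hnrnpab 288 CPM per kilobase. Among SR genes Srsf2, a nuclear speckle protein, led at 5 days with 416 CPM per kilobase against 232 for Srsf3, while at 10 days Srsf3 had 234 and Srsf2 225. Among SF3 genes Sf3b4, an SF3B subunit with RNA recognition motifs, led at 5 days with 134 CPM per kilobase, while at 10 days it had 44.4 and Sf3b3 led with 113. Srsf12 and Hnrnpa1l2-ps2 lay below 0 log2 CPM in both tables and are not interpreted further. Values per kilobase depend on the transcript the authors chose: that of Hnrnpr carries a 3′UTR of 19419 bases and gave 3.94 CPM per kilobase. That of Hnrnpa1 is itself annotated for nonsense-mediated decay. Close paralogs such as Hnrnph1 and Hnrnph2, and Hnrnpa1 and its pseudogenes, can share reads, so how reads were divided between them is uncertain.

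**Figure D1:**
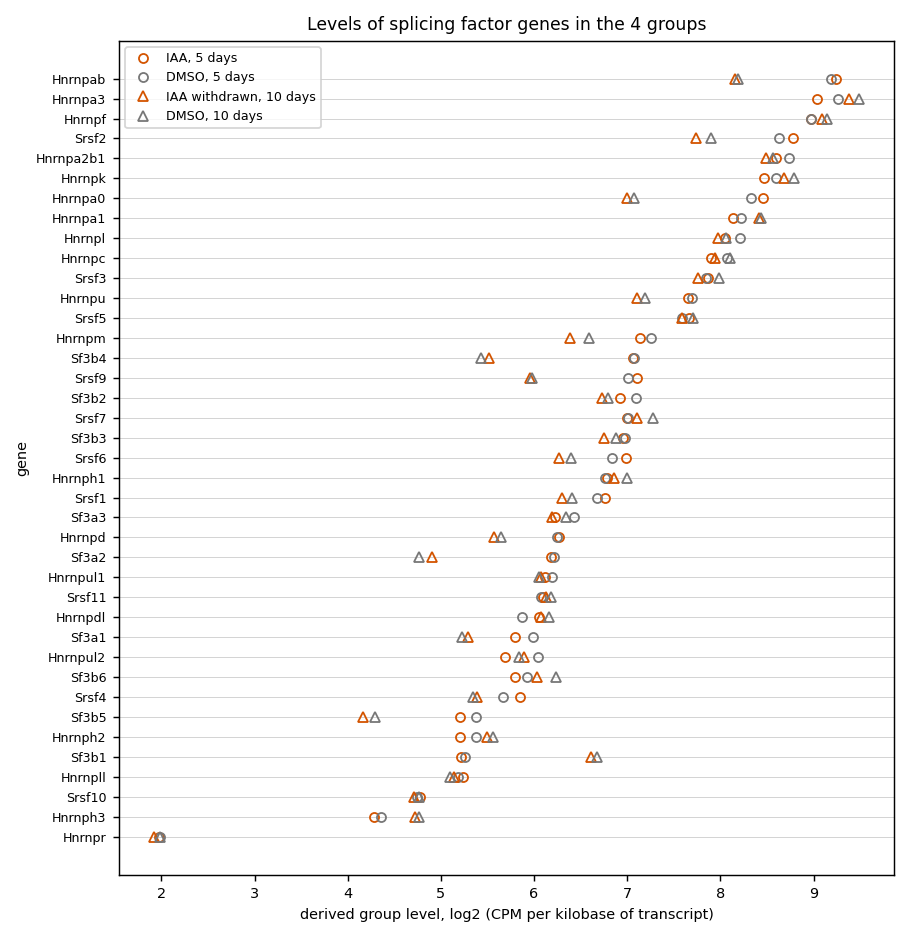
Derived levels of the members in all 4 groups (circles 5 days, triangles 10 days after withdrawal; orange IAA, grey DMSO), in log2 CPM per kilobase of the listed transcript. Each point is a group level over 3 libraries with no spread of its own; the 2 members below 0 log2 CPM are not drawn, and the order runs by the 5-day level, headed by Hnrnpab, Hnrnpa3 and Hnrnpf.

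After 5 days of IAA, 11 of 41 members (26.8%) passed a limma adjusted p of 0.05 by the authors' deposited table. Of these, 2 were higher and 9 lower than in DMSO cells, against a background of 25.5% of all genes (13.5% higher and 12.1% lower). Members are abundant, and among the 3360 genes with a mean log2 CPM of 6 or more, a comparison chosen after the data were seen, 41.6% passed (11.9% higher and 29.7% lower). The share of members called was therefore near that of all genes and below that of abundant genes. The split of 2 higher and 9 lower as deposited did not change when the median fold was set to 0. It did change when trends of the fold with length, GC content and level were removed. A weighted fit gave 14 higher and 1 lower, against 2907 higher and 1445 lower of all 18765 genes (23.2% called). An unweighted fit, which also removed its intercept, gave 10 higher and 4 lower, against 2098 and 2536 of all genes (24.7% called). With trends of length and GC content alone removed, the weighted fit gave 3 higher and 6 lower, a count for which no share of all genes is given here. The unweighted fit then gave 0 higher and 18 lower, against 1780 and 3627 of all genes (28.8% called). With that fit the median fold of all genes was -0.075, against 0.013 as deposited. In bulk RNA, fewer cells that express a gene and less of its RNA per cell cannot be told apart. All changes were small, since the folds of the 11 members spanned 0.13 to 0.35 log2 units in size.

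**Figure D2:**
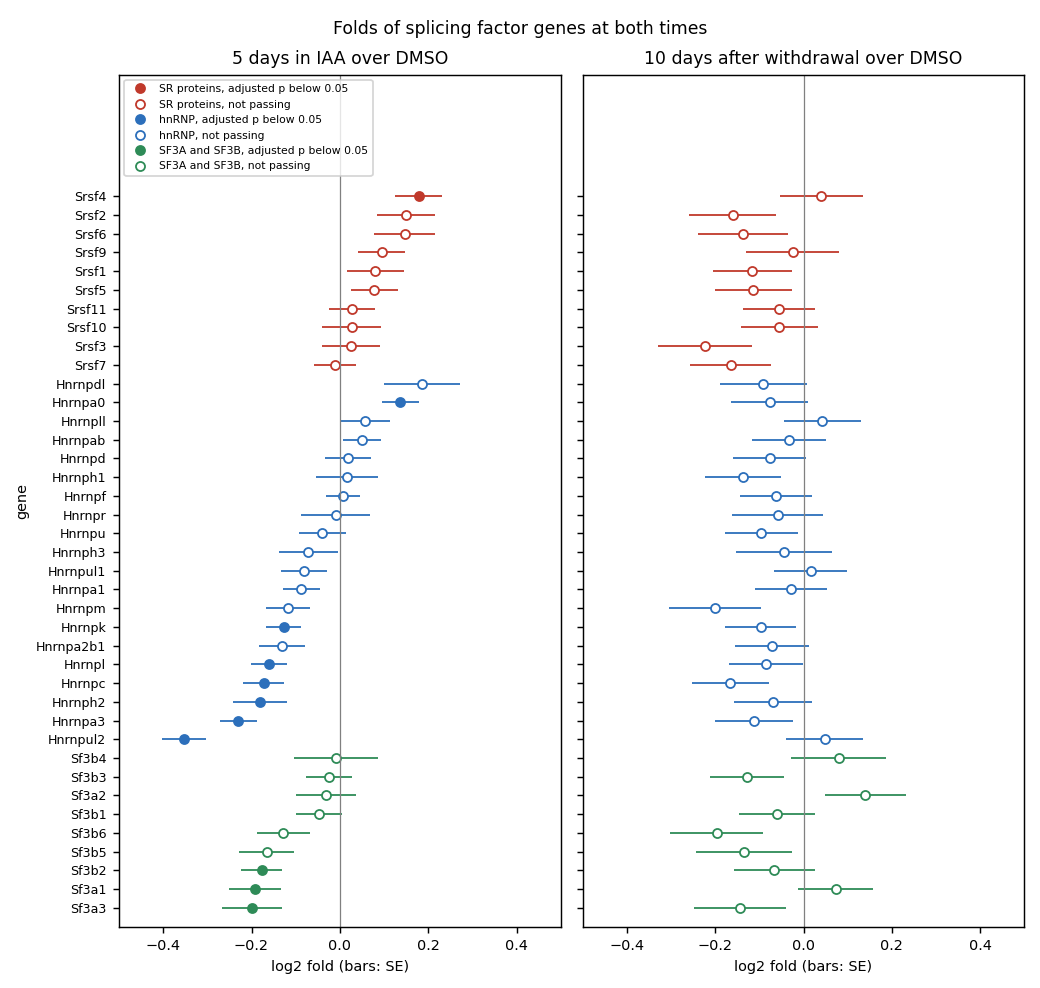
Log2 fold of IAA over DMSO at 5 days (left) and 10 days after withdrawal (right) for the members, by family, with bars of 1 SE and filled points for an adjusted p below 0.05; the 2 members with a mean log2 CPM below 0 are not drawn. Hnrnpul2 has the lowest 5-day fold, -0.35, and all 9 SF3 genes lie below 0 as deposited. Once length, GC and level trends are removed, 5 of 9 lie above 0 by the weighted and 2 of 9 by the unweighted fit. With length and GC trends alone removed, these are 1 of 9 and 0 of 9.

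Srsf4, an SR protein with a long arginine-serine domain, was the SR gene that passed. Its derived level was 130 CPM in IAA cells and 115 CPM in DMSO cells, a log2 fold of 0.18 ± 0.05 (SE) by the authors' deposited table (limma adjusted p = 0.0249). The call was lost after the unweighted removal of length and GC trends, where the fold was 0.08 (limma-based adjusted p = 0.272). A fold above 0 was found in 51.5% of all genes and 36.9% of genes with a mean log2 CPM of 6 or more. Of the 11 SR genes, 10 had one (9 of 10 without Srsf12), with a median of 0.08. That balance was 11 of 11 above 0 after either removal that included level and after the weighted removal of length and GC trends, and 8 of 11 after the unweighted one; no SR gene was called lower under any of these settings. The number of SR genes called higher depended on which trends were removed. It was 1 of 11 as deposited, against 13.5% of all genes, and 1 of 11 with the median fold set to 0. Removal of length, GC and level trends gave 9 by the weighted and 7 by the unweighted fit, against 2907 and 2098 of all 18765 genes. The weighted fit moved other splicing genes upward too. It called 8 of 18 hnRNP proteins under other symbols and 7 of 26 SR-related factors higher, with 0 lower. Among U4/U6.U5 proteins it called 6 higher and 5 lower. Removal of length and GC trends gave 3 by the weighted and 0 by the unweighted fit, the latter against 1780 of all 18765 genes.

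The 3 most abundant SR genes did not pass as deposited. Srsf2 had 833 CPM in IAA cells and 751 CPM in DMSO cells (log2 fold 0.15 ± 0.07 SE, limma adjusted p = 0.117 in the authors' deposited table). Srsf3, which also serves as an adaptor for messenger RNA export, had 612 CPM in IAA cells and 601 CPM in DMSO cells. Srsf1, which binds purine-rich exonic enhancers, had 580 CPM in IAA cells and 548 CPM in DMSO cells. The 95% intervals of their folds ran from 0.01 to 0.29 for Srsf2, from -0.11 to 0.16 for Srsf3 and from -0.06 to 0.22 for Srsf1, so increases of these sizes cannot be set aside. With length, GC and level trends removed by the weighted fit all 3 passed (limma-based adjusted p), Srsf2 at 0.37 (0.00123), Srsf3 at 0.25 (0.0119) and Srsf1 at 0.23 (0.0201); the unweighted fit passed Srsf2 and Srsf3 but not Srsf1.

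Hnrnpul2, a relative of the chromatin-bound protein Hnrnpu, had the largest change of any member that passed. It fell to 296 CPM in IAA cells, against 378 CPM in DMSO cells, a change of -21.7% and a log2 fold of -0.35 ± 0.05 (SE) by the authors' deposited table (limma adjusted p = 0.00022). Its call held under each alternative run, with folds between -0.56 and -0.28. Its relatives did not pass: Hnrnpu had 1541 CPM in IAA cells and 1583 CPM in DMSO cells, and Hnrnpul1 had 262 CPM in IAA cells and 277 CPM in DMSO cells.

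Hnrnpa3, an A/B-type hnRNP, fell to 908 CPM in IAA cells, against 1064.5 CPM in DMSO cells (log2 fold -0.23 ± 0.04 SE, limma adjusted p = 0.00125 in the authors' deposited table). Hnrnpl, which binds CA-rich RNA, fell to 707 CPM in IAA cells, against 791 CPM in DMSO cells (log2 fold -0.16 ± 0.04 SE, limma adjusted p = 0.0092 in the authors' deposited table). Its paralog Hnrnpll, known for the splicing of Ptprc in T cells, had 118 CPM in IAA cells and 113 CPM in DMSO cells and did not pass. Thus the paralogs lay on opposite sides of 0, although the difference between them was not tested.

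Hnrnpc, which binds uridine tracts, fell to 594 CPM in IAA cells, against 670 CPM in DMSO cells (log2 fold -0.17 ± 0.05 SE, limma adjusted p = 0.0141 in the authors' deposited table). Hnrnpk, which binds C-rich RNA through KH domains, fell to 948 CPM in IAA cells, against 1036 CPM in DMSO cells (log2 fold -0.13 ± 0.04 SE, limma adjusted p = 0.0295 in the authors' deposited table). Hnrnph2, which binds G runs, fell to 89.2 CPM in IAA cells, against 101 CPM in DMSO cells (log2 fold -0.18 ± 0.06 SE, limma adjusted p = 0.0445 in the authors' deposited table). After the weighted removal of length and GC trends none of these 3 passed, with folds of -0.13, -0.09 and -0.13 (limma-based adjusted p = 0.0626, 0.133 and 0.150 in that order). All 3 passed in the unweighted form of that removal, and none did in either form that included level. The paralogs of Hnrnph2 did not pass: Hnrnph1 had 267 CPM in IAA cells and 264 CPM in DMSO cells, and Hnrnpf had 1143 CPM in IAA cells and 1137 CPM in DMSO cells. Hnrnpab, the most abundant member per kilobase at 5 days, had 1434 CPM in IAA cells and 1385 CPM in DMSO cells and did not pass.

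Hnrnpa0, a single-exon A/B-type gene, was the hnRNP gene called higher, with 942 CPM in IAA cells and 857 CPM in DMSO cells (log2 fold 0.14 ± 0.04 SE, limma adjusted p = 0.0287 in the authors' deposited table). Its call was lost when length and GC trends were removed, with folds of 0.11 by the weighted fit and 0.02 by the unweighted fit. Over the family, 1 of 21 rose and 6 fell (33.3% called and 28.6% lower, against 25.5% and 12.1% of all genes and 41.6% and 29.7% of abundant genes), so the lower share was near that of abundant genes. Of the 21 folds, 8 lay above 0 (7 of 20 without Hnrnpa1l2-ps2), with a median of -0.07. This direction turned when level was included in the trends. The median was then 0.11 by the weighted fit, with 5 higher and 1 lower. By the unweighted fit it was 0.02, with 3 higher and 2 lower. Of the falls, 4 did not keep their direction in the weighted fit, where Hnrnpa3 stood at 0.06, Hnrnpl at 0.01, Hnrnpc at 0.05 and Hnrnpk at 0.11, none of them passing.

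Sf3b2, an SF3B subunit next to the branch point, fell to 390 CPM in IAA cells, against 441 CPM in DMSO cells (log2 fold -0.18 ± 0.05 SE, limma adjusted p = 0.0114 in the authors' deposited table). Sf3a1, the SF3A subunit with SURP domains, fell to 274 CPM in IAA cells, against 313 CPM in DMSO cells (log2 fold -0.19 ± 0.06 SE, limma adjusted p = 0.0257 in the authors' deposited table). Sf3a3, another SF3A subunit, fell to 136 CPM in IAA cells, against 157 CPM in DMSO cells (log2 fold -0.20 ± 0.07 SE, limma adjusted p = 0.0462 in the authors' deposited table). After the weighted removal of length and GC trends Sf3a3 no longer passed (-0.15, limma-based adjusted p = 0.124). Of the 9 SF3 genes 33.3% were called, all lower, against 29.7% lower among abundant genes. All 9 SF3 folds lay below 0, with a median of -0.13. After removal of length, GC and level trends, 5 of 9 lay above 0 by the weighted fit and 2 of 9 by the unweighted fit, with 0 and 2 called lower. After removal of length and GC trends alone, 1 of 9 and 0 of 9 lay above 0, with 2 and 6 called lower.

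Among the SF3 genes that did not pass, Sf3b3, the large WD40-type subunit, had 560 CPM in IAA cells and 569 CPM in DMSO cells, and Sf3b4 had 256 CPM in IAA cells and 258 CPM in DMSO cells. Sf3b1, the large scaffold that surrounds the branch-point helix, had 230 CPM in IAA cells and 238 CPM in DMSO cells, with a 95% interval of the log2 fold from -0.16 to 0.06. Over the 28 members that did not pass and had a mean log2 CPM of 0 or more, folds ran from -0.17 to 0.19, and the interval bounds reached -0.30 (Sf3b5) and 0.37 (Hnrnpdl).

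**Figure D3:**
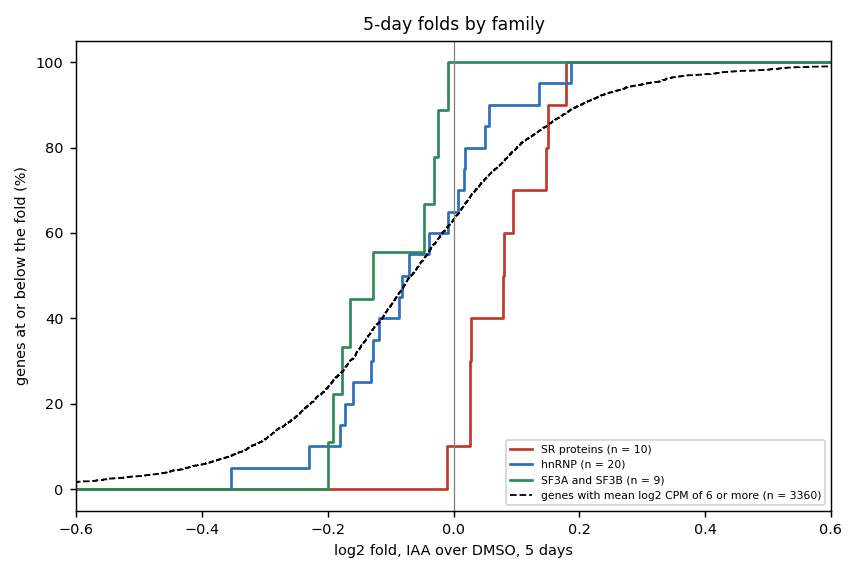
Cumulative share (%) of genes at or below each log2 fold of IAA over DMSO at 5 days, for SR, hnRNP and SF3 genes and for 3360 genes with a mean log2 CPM of 6 or more; the 2 members below 0 log2 CPM are left out. The SF3 curve reaches 100% left of 0 and the SR curve lies mostly right of 0 for folds as deposited. Once length, GC and level trends are removed, 5 of 9 SF3 folds lie above 0 by the weighted and 2 of 9 by the unweighted fit. With length and GC trends alone removed, these are 1 of 9 and 0 of 9.

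Other genes of the splicing pathway were taken from 7 lists, in which 41 of 170 measured genes passed at 5 days (24.1%, against 25.5% of all genes), 16 higher and 25 lower. Among U1, U2 and Sm proteins 1 of 24 rose and 7 fell; Snrpn, an imprinted Sm protein gene, rose to 239 CPM in IAA cells, against 156 CPM in DMSO cells, and Snrpd2, a core Sm protein, fell to 214 CPM in IAA cells, against 267 CPM in DMSO cells. Among proteins of the U4/U6.U5 particle and the catalytic steps 2 of 41 rose and 11 fell. Calls made up 33.3% of the first list and 31.7% of the second. Of all genes 25.5% were called (12.1% lower), and of abundant genes 41.6% (29.7% lower). Most genes of both lists were abundant, since 22 of 24 and 30 of 41 had a mean log2 CPM of 6 or more. Cdc5l, of the Prp19-associated complex, fell to 155 CPM in IAA cells, against 235 CPM in DMSO cells, and Xab2, which joins the same step, fell to 95.4 CPM in IAA cells, against 140 CPM in DMSO cells. With length, GC and level trends removed by the weighted fit, the first of these lists had 5 higher and 0 lower. The second had 6 higher and 5 lower. By the unweighted fit with level the first had 6 higher and 2 lower, and the second 5 and 9. With length and GC trends alone removed, the first had 1 higher and 2 lower by the weighted fit and 1 and 9 by the unweighted fit. The second then had 2 and 9, and 0 and 15. The direction of the first list thus turned when level was included. In the second, lower calls outnumbered higher ones in every removal but the weighted one with level.

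Among hnRNP proteins under other symbols 4 of 18 rose and 1 fell. Ptbp2, the neural relative of the polypyrimidine tract binding protein, rose to 47.0 CPM in IAA cells, against 28.5 CPM in DMSO cells, a log2 fold of 0.72 ± 0.10 (SE). Of 9 SR kinases, Dyrk1a rose to 86.0 CPM in IAA cells, against 73.4 CPM in DMSO cells, and Clk1, which releases SR proteins from speckles, fell to 27.9 CPM in IAA cells, against 33.0 CPM in DMSO cells. Of 26 SR-related factors 2 rose and 2 fell. Of 37 tissue-type regulators 3 rose and 2 fell, among them Esrp1, an epithelial regulator, with 80.6 CPM in IAA cells and 55.9 CPM in DMSO cells. Of 15 exon junction and decay factors 3 rose and 1 fell, among them Casc3, a core of the exon junction complex, with 88.4 CPM in IAA cells and 70.8 CPM in DMSO cells. The shares called in these 5 lists were 27.8%, 22.2%, 15.4%, 13.5% and 26.7%, in the order named. Of all genes 25.5% were called, and of abundant genes 41.6%. The counts in these lists depended on which trends were removed as well. With length, GC and level trends removed by the weighted fit, 8 of 18 other hnRNP proteins were higher and 0 lower, as were 7 and 0 of the SR-related factors, 8 and 0 of the tissue-type regulators and 5 and 0 of the exon junction and decay factors. With length and GC trends removed by the unweighted fit these became 2 higher and 5 lower, 1 and 10, 2 and 9, and 0 and 3, in the same order. Both SR kinase calls were lost when length and GC trends were removed by either fit.

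Markers of the cell state moved as well at 5 days. Of the pluripotency markers, the authors' deposited table had 1 of 10 higher and 6 lower, with a summed level of 7563 CPM in IAA cells and 8836 CPM in DMSO cells. The largest falls were those of Esrrb (-0.81), Nanog (-0.74) and Zfp42 (-0.57), and Lin28a rose (0.36). With length, GC and level trends removed, 3 of these markers were higher and 3 lower by the weighted fit, and 2 and 3 by the unweighted fit. With length and GC trends alone removed, these were 1 and 5, and 1 and 6. Of markers of other cell types, the authors' deposited table called 2 of 5 of primitive endoderm higher, Foxa2 (1.88) and Gata4 (0.78), with a summed level of 4.15 CPM in IAA cells and 3.04 CPM in DMSO cells. The uncalled primitive endoderm markers went both ways, with Sox17 at 1.07, Sox7 at -0.64 and Gata6 at -0.29. Of mesendoderm, the authors' deposited table called 1 of 4 higher, Mixl1 (1.64), with a summed level of 6.45 CPM in IAA cells and 5.13 CPM in DMSO cells. The uncalled ones were T at 0.73, Eomes at 0.14 and Mesp1 at -0.83. Of 4 neuroectoderm markers it called Tubb3 lower (-0.61), with a summed level of 112 CPM in IAA cells and 161 CPM in DMSO cells, and of 5 trophectoderm markers Krt18 higher (0.40) and Tfap2c lower (-0.55), with 122 CPM in IAA cells and 141 CPM in DMSO cells. Of 7 measured feeder markers 0 were called (10.4 CPM in IAA cells and 10.2 CPM in DMSO cells). The markers to name were chosen after their values were seen, and 4 of 5 primitive endoderm and 3 of 4 mesendoderm markers had mean levels below 0 log2 CPM. The part of these markers in the members' results was not tested.

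**Figure D4:**
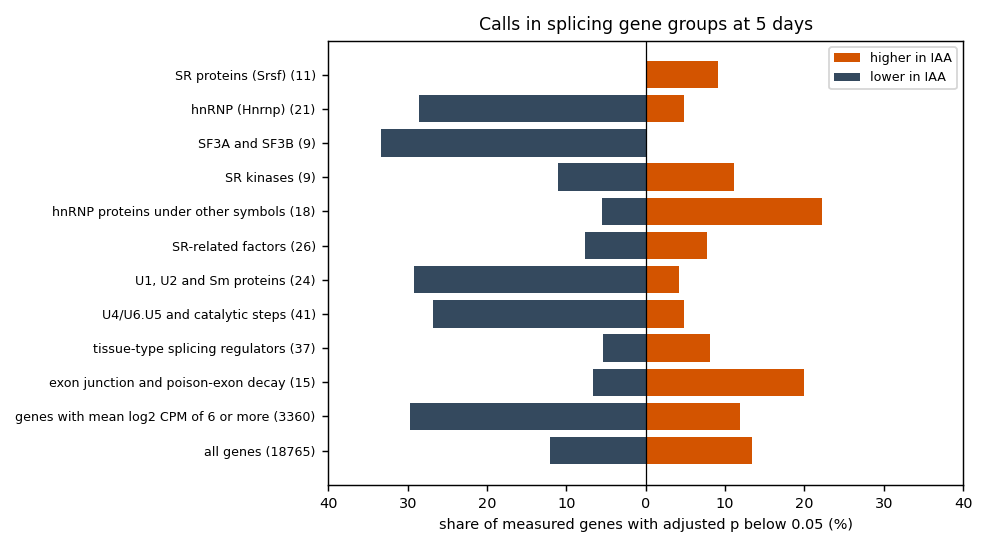
Share (%) of measured genes with an adjusted p below 0.05 at 5 days in the member families, the 7 lists of other splicing genes, abundant genes and all genes, with lower in IAA drawn to the left, higher to the right, and the number measured in brackets. Lower calls outnumber higher ones among U4/U6.U5 proteins, where 11 of 41 fell as deposited, a share below the 29.7% of abundant genes. With length, GC and level trends removed, 6 were higher and 5 lower by the weighted fit, and 5 and 9 by the unweighted fit. With length and GC trends alone removed, these were 2 and 9, and 0 and 15.

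At 10 days after withdrawal, 0 of 41 members passed in the authors' deposited table, against a background of 0% of 18712 genes. At an unadjusted limma p below 0.05 there were 0 of 41 members and 805 of all genes (4.30%), and the smallest limma adjusted p of a member was 0.901. Of the members, 34 of 41 had a fold below 0 (82.9%), against 50.0% of all genes and 59.4% of genes with a mean log2 CPM of 6 or more. By family this held for 10 of 11 SR genes (median -0.12), 18 of 21 hnRNP genes (median -0.08) and 6 of 9 SF3 genes (median -0.07). Without the 2 members below 0 log2 CPM, 1 of 10 SR folds and 3 of 20 hnRNP folds lay above 0. With length, GC and level trends removed by the weighted fit, the hnRNP median turned to 0.02, with 11 of 21 folds above 0. By the unweighted fit it stayed below 0, at -0.02, with 9 of 21 above 0. With length and GC trends alone removed, it was -0.06 by the weighted fit (3 of 21 above 0) and -0.11 by the unweighted fit (1 of 21). Hnrnpul2 had 339 CPM in cells withdrawn from IAA and 328 CPM in their DMSO controls. Srsf4 had 94.3 CPM in withdrawn cells and 91.7 CPM in their controls, and Srsf3, the lowest fold above 0 log2 CPM at -0.22, had 567 CPM in withdrawn cells and 662 CPM in their controls. Bounds of the 95% intervals reached -0.45 (Srsf3) and 0.33 (Sf3a2). Even the smallest limma p of all genes, 4.4e-05, did not pass (limma adjusted p = 0.822). With SEs of 0.08 to 0.11, a change of the size called at 5 days would not have passed in any member. The count of 0 of 41 therefore does not show that the members were unchanged.

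The 5-day fold minus the 10-day fold was tested with a two-sided z test and Benjamini-Hochberg adjustment over the 18120 genes in both tables. Of the members 1 of 41 passed, against a background of 10.4% of all genes (5.57% with the 5-day fold above and 4.85% with it below) and 13% of genes with a mean log2 CPM of 6 or more (4.55% above and 8.42% below). Among members 7 of 41 had an unadjusted p below 0.05 (17.1%, against 22.9% of all genes). That member was Hnrnpul2, whose difference was -0.40 ± 0.10 (SE, adjusted p = 0.0019 by the z test). With Welch-Satterthwaite degrees of freedom in place of the normal distribution, the same member passed and the background was 6.94%. The SR genes had 11 of 11 differences above 0, with a median of 0.19, against 51.0% of all genes and 44.0% of abundant genes; without Srsf12 it was 10 of 10, with a median of 0.17. The count was 11 of 11 under each of the trend removals too, but none passed as deposited. The SR gene nearest to passing was Srsf2, at 0.31 (95% interval 0.08 to 0.54, adjusted p = 0.0704 by the z test), followed by Srsf6, at 0.28 (adjusted p = 0.129 by the z test). With length, GC and level trends removed by the weighted fit, 6 members passed, against 10.9% of all genes. Of these, 5 had the 5-day fold above: Srsf1, Srsf2, Srsf3, Srsf6 and Hnrnpa0. The unweighted fit passed 4, against 11.9% of all genes, with Srsf2 and Srsf5 above and Hnrnpul2 and Sf3a1 below.

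**Figure D5:**
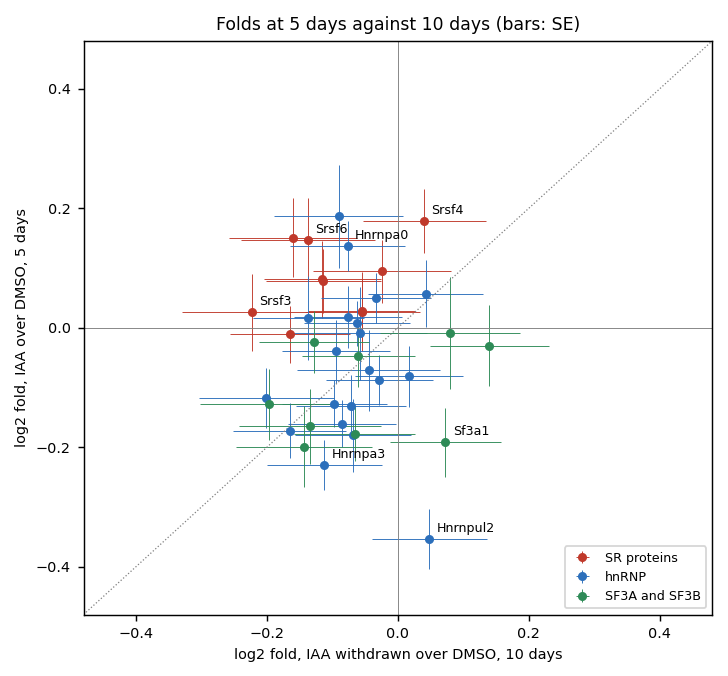
Log2 fold of IAA over DMSO at 5 days against that 10 days after withdrawal for each member, coloured by family, with bars of 1 SE and a dotted line of equal folds; the 2 members below 0 log2 CPM are not drawn. Hnrnpul2 stands apart, with -0.35 at 5 days and 0.05 at 10 days.

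The members' listed transcripts were poorer in GC than most, with a median of 45.2% against 50.4% for all genes in both tables; the median was 43.5% in SR genes, 45.2% in hnRNP genes and 49.8% in SF3 genes. The median 3′UTR was 1536 bases in SR genes, 1082 in hnRNP genes and 533 in SF3 genes, against 899 for all genes. Mean levels of the same member also differed between the tables, which were normalised separately: the 10-day mean minus the 5-day mean ran from -1.59 log2 CPM (Sf3b4) to 1.40 (Sf3b1). Across the 41 members this shift had a Pearson correlation of -0.57 with GC content, and across the 3360 abundant genes -0.65; genes are not independent replicates and share their libraries, so these are descriptions. No change of level between the times was read from it.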

How the data were processed

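Poly(A) RNA of 12 libraries in 4 groups of 3 was compared. The authors deposited 2 limma result tables, per the file headers, with 1 transcript per gene and no values of single libraries. Log2 folds, mean log2 CPM levels, the t and B scores and p-values with Benjamini-Hochberg adjustment were computed by the authors, and the GC fraction and lengths of each transcript were deposited beside them. Aligner, counter, genome build and limma version were not stated: they are not given in the sources consulted.

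Standard errors were computed as fold divided by t, and intervals used the degrees of freedom implied by t and p (13.4 at 5 days, 15.2 at 10 days). Group levels are the mean with the fold split evenly about it, which assumes equal weights. Calls used an adjusted p below 0.05; a z test compared the times, and was checked on simulated data. Depth was read from the lowest repeated mean level, taken as 1 count in 1 of 6 libraries with a prior count of 0.5. Gene models came from GENCODE M21 (GRCm38): 39 of 41 listed transcript versions matched, and Sf3b2 and Hnrnpul2 were matched by gene. Python 3.11.15, pandas 2.3.3, numpy 2.4.6, scipy 1.17.1 and matplotlib 3.10.9 were used.

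The members and lists were chosen with earlier results of these data known. Named are the members that passed, the 3 most abundant of each family, paralogs of named members, and up to 4 called genes of each list whose mean level is 1 log2 CPM or more. Alternatives were a threshold of 0.01, a minimum level, a median fold of 0, removal of trends with transcript features and, for the difference of the times, a t distribution with Welch-Satterthwaite degrees of freedom. Trends were removed with a weighted fit (1/SE squared, slopes only, centred on the median gene). This form was chosen after an unweighted fit and its calls had been seen, and both are given. The unweighted fit also removed its intercept, so the fits differ in more than the weighting. The abundant-gene background was also added after the data were seen.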

Additional observations from a re-analysis of the deposited data

Results flagged for a closer look

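Hnrnpul2 stood out because its response differed between the times: the 5-day fold minus the 10-day fold was -0.40 log2 units by a two-sided z test with Benjamini-Hochberg adjustment over 18120 genes (adjusted p = 0.0019, and 1.61e-05 to 0.0232 over the alternatives). Its level was 296 CPM in IAA cells and 378 CPM in DMSO cells at 5 days, and 339 CPM in withdrawn cells and 328 CPM in their DMSO controls at 10 days. The tables were normalised separately, and the part of that in the difference was not tested.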

How the results depend on the processing

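No paired analysis was possible because the tables hold no values of single libraries; for the same reason leaving out each replicate was not run. At 10 days 0 members were called under every setting run. At 5 days, setting the median fold to 0 or requiring a mean log2 CPM of at least 0 changed no call of a tested member. A threshold of 0.01 left 3 members called at 5 days, 0 higher and 3 lower, against 14.9% of all genes. Removal of length and GC trends gave 3 higher and 6 lower by the weighted fit, a count given without the share of all genes. The unweighted one gave 18 called, 0 higher and 18 lower, against 28.8% of all genes. It also removed its intercept, and the median 5-day fold of all genes was then -0.075. That median was 0.0075 by the weighted fit and 0.013 as deposited, so the calls reflect more than the weighting. Removal of length, GC and level trends gave 14 higher and 1 lower by the weighted fit (23.2% of all genes called). The unweighted one gave 10 higher and 4 lower (24.7% of all genes called). The difference of the times was called in 6 members (5 above) by the weighted fit with level. It was called in 4 (2 above, 2 below) by the unweighted fit with level, and in 2 (2 below) by the unweighted fit with length and GC. Of all genes 10.9%, 11.9% and 12.2% were called, in the same order. With Welch-Satterthwaite degrees of freedom 1257 genes differed between the times in place of 1887, and 1 member in both. The weighted form was chosen after the unweighted one had been seen, so neither split by direction is preferred here. The cause of these changes was not tested. Hnrnpul2 kept its 5-day call and its difference under every setting run.

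Some folds turned sign, and of these only Srsf7 with level removed and Hnrnpd in the unweighted fit of length and GC passed. At 5 days with the median fold set to 0 there was Hnrnpf at -0.0054. With length and GC trends removed there were Hnrnpd at -0.036, Srsf7 at 0.058 and Sf3b4 at 0.00021. The unweighted form of that removal gave Srsf1 at -0.048, Hnrnpab at -0.0057, Hnrnpll at -0.012, Srsf11 at -0.040, Srsf10 at -0.048, Hnrnpd at -0.16, Hnrnph1 at -0.012, Srsf7 at 0.0067 and Hnrnpf at -0.0099. With level included there were Hnrnpa3 at 0.055, Hnrnpl at 0.0061, Hnrnpc at 0.050, Hnrnpk at 0.11, Hnrnpa2b1 at 0.13, Hnrnpm at 0.022, Sf3b6 at 0.073, Hnrnpa1 at 0.12, Hnrnpul1 at 0.0089, Hnrnph3 at 0.049, Sf3b1 at 0.044, Hnrnpu at 0.11, Sf3b3 at 0.10, Sf3a2 at 0.055, Srsf7 at 0.20 and Sf3b4 at 0.14. Its unweighted form gave Hnrnpa3 at 0.018, Hnrnpk at 0.025, Hnrnpa2b1 at 0.085, Sf3b6 at 0.086, Hnrnpa1 at 0.019, Hnrnph3 at 0.0094, Hnrnpd at -0.026, Srsf7 at 0.16 and Sf3b4 at 0.053.

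At 10 days the removal of length and GC trends gave Hnrnpa2b1 at 0.0032, Hnrnph3 at 0.0026, Hnrnpul2 at -0.028, Srsf9 at 0.040 and Hnrnpul1 at -0.032. Its unweighted form gave Sf3a1 at -0.0029, Hnrnpul2 at -0.041, Srsf9 at 0.0044 and Hnrnpul1 at -0.047. With level included there were Srsf5 at 0.036, Hnrnpa3 at 0.056, Hnrnpk at 0.020, Hnrnpa2b1 at 0.077, Hnrnph2 at 0.019, Hnrnpf at 0.063, Srsf11 at 0.0077, Hnrnph3 at 0.034, Srsf9 at 0.082, Hnrnpab at 0.060 and Hnrnpa1 at 0.065, and in the unweighted form Hnrnpa3 at 0.012, Hnrnpa2b1 at 0.038, Hnrnpf at 0.026, Hnrnph3 at 0.0027, Srsf9 at 0.057, Hnrnpab at 0.030 and Hnrnpa1 at 0.030. For the difference of the times, removal with level gave Hnrnpl at 0.026, Hnrnpc at 0.10, Hnrnpk at 0.087, Sf3a3 at 0.011, Sf3b5 at 0.056, Hnrnpa2b1 at 0.049, Hnrnpa1 at 0.055, Hnrnph3 at 0.015 and Sf3b4 at 0.0023. The unweighted form gave Hnrnpll at -0.027, Sf3b1 at -0.074, Hnrnpu at -0.044 and Hnrnpr at -0.14 without level, and Hnrnpa3 at 0.0058, Hnrnpc at 0.067, Hnrnpk at 0.043, Hnrnpa2b1 at 0.047, Hnrnph3 at 0.0067, Sf3b1 at -0.030 and Hnrnpr at -0.11 with level. SEs of 0.08 to 0.11 at 10 days limit what could be called there.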
